A study of Mus musculus with 3 samples.

Results

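The genes described here are 42 interferon-induced genes and their regulators, taken from a fixed list of symbols and matched to the gene names of the deposited matrices. Of these, 40 were found among the 32285 genes of the matrices, and Mx1 and Mx2 were not analysed here. The 40 genes comprise 4 regulators (Irf1, Irf7, Irf9 and Stat2), 28 genes called type I-like because they are best known as targets of type I interferon, and 8 genes called gamma-like because they are best known as targets of interferon gamma (Gbp2, Gbp3, Gbp5, Gbp7, Igtp, Iigp1, Irgm1 and Irgm2). The split is by textbook association, since most of these genes respond to both kinds of interferon.

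The cells came from digested vascular tissue, named as aorta in the deposited data, of wild-type (WT) mice, and their RNA was counted cell by cell in a droplet assay that reads 3' ends and tags each molecule with a unique molecular identifier (UMI). The 3 groups were a control given vehicle, mice given a tyrosine kinase inhibitor (TKI), which the series design names as sunitinib, and mice given sunitinib plus Yoda1. Sunitinib inhibits receptor tyrosine kinases such as those for VEGF and PDGF, and Yoda1 is a small-molecule agonist of the mechanically gated channel PIEZO1. Every library is labelled 3 weeks, without saying what the weeks count, and the label of the last library names Yoda1 alone. Each group was 1 library, and the number of mice behind it is not stated in the labels. Differences between groups therefore have no replicate check and no test, and every interval below is a 95% interval for counting error only.

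Interferons signal through cell-surface receptors and JAK kinases. Type I interferons assemble a complex that includes STAT2 and IRF9 and binds a sequence called the interferon-stimulated response element (ISRE). Interferon gamma acts through gamma-activated sequences (GAS) and induces the transcription factor IRF1, which in turn binds ISRE-like sites. IRF7 amplifies type I interferon production. Among the targets, ISG15 is a ubiquitin-like modifier, the IFIT and OAS families recognise foreign RNA, RSAD2 (viperin) blocks viral replication, and IFITM3 restricts viral entry. GBP and IRG proteins are GTPases that attack membranes around intracellular pathogens. Vascular endothelium is a known responder to interferon gamma, where class II antigen presentation genes are induced through the transactivator CIITA.

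Promoter windows from 250 bases before to 50 bases after the annotated start were available in RefSeq (GRCm38.p6) for 30 of the 42 genes. They were searched on both strands for GAAA, any 2 bases and GAAA again as an ISRE core and TTCNNNGAA as a GAS core, where N is any base, and matches of 1 motif may overlap each other or the other motif. The ISRE core was found in 7 of 7 gamma-like genes with a window, in 9 of 19 type I-like genes (47.4%) and in 1 of 4 regulators, against 3.99% of all 27018 genes with a window. The GAS core was found in 4 of 7 gamma-like genes (57.1%), 8 of 19 type I-like genes (42.1%) and 1 of 4 regulators, against 9.55% of all genes. A match describes the letters of the window and not a bound site. The windows below show a regulator, 3 gamma-like genes whose ratios in endothelium lay below 0 with sunitinib, and the type I-like gene Isg15, with the matched cores in capitals.
Irf1 (chr11:53769764-53770063, plus strand; 1 GAS core from position -90, counted from the start): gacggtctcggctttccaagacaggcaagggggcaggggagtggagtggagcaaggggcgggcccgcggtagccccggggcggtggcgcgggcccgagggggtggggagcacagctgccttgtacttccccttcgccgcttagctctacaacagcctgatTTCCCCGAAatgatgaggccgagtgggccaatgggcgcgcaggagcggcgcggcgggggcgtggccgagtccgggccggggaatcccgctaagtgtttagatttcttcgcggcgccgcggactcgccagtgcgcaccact
Gbp2 (chr3:142620413-142620712, plus strand; 1 ISRE core from position -59): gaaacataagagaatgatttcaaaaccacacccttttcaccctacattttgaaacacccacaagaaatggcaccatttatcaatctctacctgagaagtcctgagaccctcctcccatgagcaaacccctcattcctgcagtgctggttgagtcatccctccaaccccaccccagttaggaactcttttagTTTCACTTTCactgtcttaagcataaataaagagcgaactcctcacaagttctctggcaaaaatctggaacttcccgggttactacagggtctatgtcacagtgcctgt
Igtp (chr11:58199306-58199605, plus strand; 1 GAS core from position -45 and 1 ISRE core from position -34): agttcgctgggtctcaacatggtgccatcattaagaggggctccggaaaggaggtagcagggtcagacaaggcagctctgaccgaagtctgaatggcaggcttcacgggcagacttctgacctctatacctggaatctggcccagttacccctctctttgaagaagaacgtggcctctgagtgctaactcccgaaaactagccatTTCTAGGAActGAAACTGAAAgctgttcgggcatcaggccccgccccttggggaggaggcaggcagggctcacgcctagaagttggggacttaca
Irgm1 (chr11:48871371-48871670, minus strand; 2 overlapping ISRE cores): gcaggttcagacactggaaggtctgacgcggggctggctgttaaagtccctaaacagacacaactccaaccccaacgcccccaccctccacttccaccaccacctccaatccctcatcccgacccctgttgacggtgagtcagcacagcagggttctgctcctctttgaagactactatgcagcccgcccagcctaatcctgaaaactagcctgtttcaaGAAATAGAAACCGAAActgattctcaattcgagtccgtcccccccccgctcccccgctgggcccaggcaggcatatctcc
Isg15 (chr4:156200769-156201068, minus strand; 3 overlapping ISRE cores): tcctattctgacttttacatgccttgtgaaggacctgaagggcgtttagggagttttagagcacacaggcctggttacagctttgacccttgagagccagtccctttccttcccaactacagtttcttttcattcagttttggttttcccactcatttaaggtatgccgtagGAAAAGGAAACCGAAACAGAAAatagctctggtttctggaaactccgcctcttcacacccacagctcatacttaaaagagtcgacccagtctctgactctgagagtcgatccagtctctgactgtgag

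The cells used had at least 500 UMIs, at least 300 genes and a mitochondrial share of at most 15%. There were 3947 vehicle, 4148 sunitinib and 3130 sunitinib plus Yoda1 cells. Cells were called smooth muscle where Acta2, Tagln, Myh11 and Cnn1 summed to at least 2% of UMIs, endothelium where at least 3 of Pecam1, Cdh5, Egfl7, Ptprb and Vwf were detected, and leukocytes where Ptprc was detected, and a cell that met more than 1 rule was left out. Smooth muscle held 3594, 3796 and 63 cells in the order vehicle, sunitinib and sunitinib plus Yoda1, endothelium 150, 183 and 352, and leukocytes 6, 0 and 2029. The last library thus stood apart in its makeup. Its haemoglobin markers reached 38250 CPM (UMIs per 1000000 UMIs of the class) in endothelium, against 8.51 in vehicle and 3.24 in sunitinib, and it was made with another version of the counting software. Between 3 and 8 barcodes were shared by any pair of libraries. UMIs were summed over the cells of a class before scaling to CPM. A 3' count does not grow with transcript length. Ratios are log2 ratios of CPM, described as lower or higher only at 1.5-fold or more (0.585 on the log2 scale), and are summarised over genes with at least 50 UMIs in the pair of libraries.

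Gamma-like transcripts were a far larger share of endothelial than of smooth muscle RNA. In vehicle, the 8 gamma-like genes summed to 1281 CPM in endothelium (1227 to 1337) and to 17.8 CPM in smooth muscle (16.8 to 18.8). All 8 were at least 2-fold higher in endothelium, with a median log2 ratio of 6.87, where the median over all 12101 genes was 0.07 and 17.8% of genes were at least 2-fold higher. Iigp1, an IRG-family GTPase, stood at 382 CPM in endothelium, and was 7.19 log2 units above smooth muscle (6.95 to 7.44). Gbp5, which promotes inflammasome assembly, stood 7.90 above (7.20 to 8.66). Irgm1, a regulatory member of the IRG family, had the smallest excess of the 8 at 3.77 (3.43 to 4.11). Cdh5, the adhesion molecule of endothelial junctions, stood in the smooth muscle sums at 0.022% of its endothelial level and Pecam1 at 0.752%. Both genes are part of the endothelial rule, so the class rules partly set these low levels. They are no independent measure of endothelial RNA in smooth muscle. Irgm1 stood at 7.32% and Gbp2 at 2.25% of the endothelial level.

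In vehicle, the type I-like genes were spread more evenly over the classes. They summed to 3760 CPM in vehicle endothelium (3666 to 3854) and 517 CPM in vehicle smooth muscle (512 to 523), and 18 of the 21 with at least 50 UMIs were at least 2-fold higher in endothelium (median 3.38). The medians of the type I-like and gamma-like lists were 2.67 and 5.73 in sunitinib, but 2.45 and 2.35 in the library with both compounds, where the lists did not stand apart in this way. Ifi27, which encodes a small mitochondrial protein, made up 50.4% of the smooth muscle sum. It stood at 261 CPM there and at 290 CPM in endothelium, a log2 ratio of 0.16 (0.02 to 0.29). Ifi27l2a was the only gene of the list below 0, at -0.55 (-1.77 to 0.44), and its interval included 0. In contrast Ly6e, a surface protein anchored by a lipid, stood at 944 CPM in endothelium and 0.305 CPM in smooth muscle, a log2 ratio of 11.59 (10.98 to 12.29). Sp100, a component of nuclear bodies, was at 85.1 CPM in endothelium and 8.71 log2 units above smooth muscle (7.91 to 9.62). Ifitm3 stood at 1320 CPM in endothelium and 127 CPM in smooth muscle, and Bst2 (tetherin, which holds budding virus at the membrane) at 506 and 32.6 CPM. Ifi44 and Oas1a had 0 UMIs in vehicle and sunitinib smooth muscle, where 3 counts would be 0.0436 and 0.0481 CPM, and Oas1a also had 0 in endothelium of both libraries, where 3 counts would be 1.82 and 1.62 CPM.

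**Figure D1:**
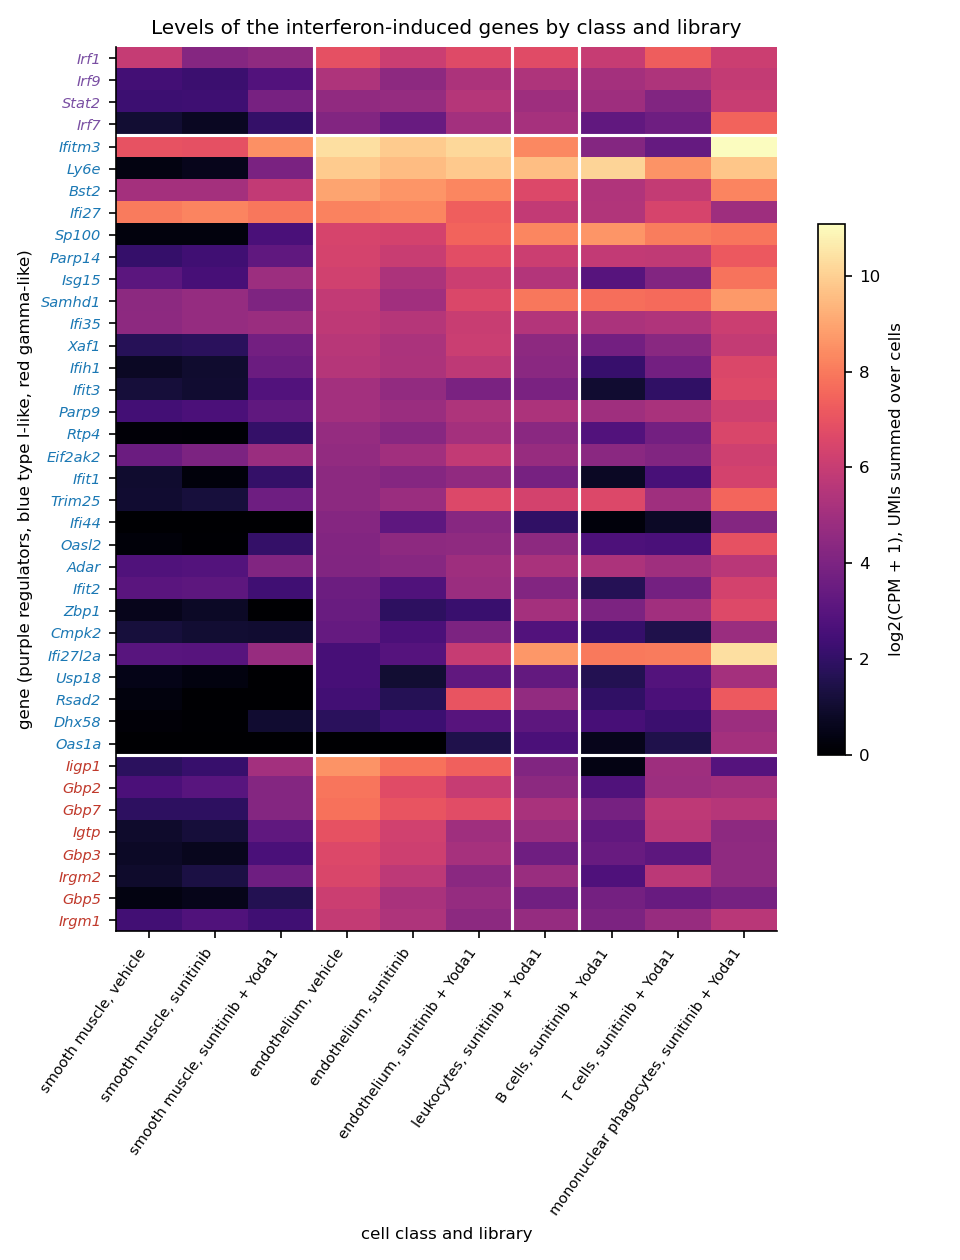
Levels of the 40 genes as log2(CPM + 1) of summed UMIs, with genes in rows grouped as regulators, type I-like and gamma-like (in each group by falling level in vehicle endothelium), and cell class and library in columns. The gamma-like block is bright in endothelium (1281 CPM summed in vehicle) and dark in smooth muscle (17.8 CPM), and the type I-like block is brightest in mononuclear phagocytes (7197 CPM).

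With sunitinib, 6 of the 8 gamma-like genes were lower in endothelium and the other two also had ratios below 0. Their sum was 1281 CPM in vehicle, against 736 for sunitinib (697 to 776) and 469 for sunitinib plus Yoda1 (441 to 499). The median log2 ratio of sunitinib over vehicle was -0.77, against 0.11 over all 6724 genes with enough UMIs. All 8 ratios and their intervals lay below 0, and 3.88% of all genes were at least 1.5-fold lower. Gbp2 had 239 CPM in the vehicle library and 105 in the sunitinib library, a log2 ratio of -1.18 (-1.44 to -0.93). Gbp5 stood at 69.3 and 36.2 CPM (-0.94, -1.39 to -0.49), and Gbp7, which takes part in delivering the phagocyte oxidase to pathogen vacuoles, at 224 and 130 CPM (-0.78, -1.02 to -0.54). Among the IRG-family GTPases, Iigp1 stood at 382 and 225 CPM (-0.76, -0.95 to -0.58). Irgm2 (91.1 and 52.4 CPM) and Igtp (122 and 75.7 CPM) had ratios of -0.80 and -0.68, but these genes overlap on the same strand, so their reads may be divided between them. Irgm1 (-0.56, -1.02 to -0.11) and Gbp3 (-0.45, -0.79 to -0.11) fell short of 1.5-fold. In bulk sums of this kind, fewer cells that express a gene and less RNA in each cell cannot be told apart.

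Of the regulators in endothelium, Irf1 and Irf9 were lower with sunitinib. Irf1 stood at 120, 67.6 and 103 CPM in vehicle, sunitinib and the library with both compounds, and the ratio of sunitinib over vehicle was -0.83 (-1.17 to -0.50). Irf9, the DNA-binding partner of STAT2, stood at 39.5, 21.6 and 38.8 CPM (-0.87, -1.48 to -0.28), and its gene overlaps Rnf31 on the same strand. Stat2 stood at 22.5, 24.9 and 44.3 CPM, with a ratio of 0.15 (-0.51 to 0.81). Irf7 had 46 UMIs over the vehicle and sunitinib libraries, under the limit of 50, and stood at 17.0 and 9.73 CPM. Of the 12 immediate early and dissociation-induced genes, 11 also lay below 0 in this comparison (median -0.26), with Hspa1b at 182 and 78.4 CPM, and their part in the Irf1 and Irf9 values of endothelium was not tested. The vehicle and both-compound levels of Irf1 and Irf9 lay close together and the sunitinib level below both. The both-compound endothelium was of another kind, rich in capillary genes, and was counted with another software version. The likeness to vehicle therefore cannot be read as a return to its level.

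The type I-like genes of endothelium differed less in this comparison. Their sum was 3760 CPM in vehicle and 2949 in sunitinib (2871 to 3029), and the median ratio over 19 genes was -0.25, with 14 below 0 and 2 at least 1.5-fold lower. These were Isg15, at 75.3 and 38.9 CPM (-0.95, -1.39 to -0.52), and Samhd1, which depletes the nucleotides that reverse transcription needs, at 57.1 and 30.8 CPM (-0.89, -1.39 to -0.40). Ifitm3 (1320 and 944 CPM, -0.48, -0.57 to -0.39) and Ifit3 (32.2 and 23.8 CPM, -0.44, -1.05 to 0.17) followed. No gene of the list was 1.5-fold higher. The highest ratios were those of Eif2ak2 (PKR, a kinase switched on by double-stranded RNA) at 0.40 (-0.21 to 1.03), Trim25, a ubiquitin ligase of RIG-I signalling, at 0.39 (-0.27 to 1.06), Oasl2 at 0.35 (-0.39 to 1.10) and the RNA editor Adar at 0.21 (-0.56 to 0.99), all with intervals that included 0. Over all 30 genes with enough UMIs, 10 were lower and 0 higher, while 3.88% of all genes were at least 1.5-fold lower and 8.06% higher. The lower count was 6 with each cell thinned to 3000 UMIs and 17 with no minimum of UMIs. Shares of all genes at these 2 settings are not given here. The medians of the gamma-like list, the type I-like list and all genes were thus -0.77, -0.25 and 0.11, and the differences between them were not tested.

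**Figure D2:**
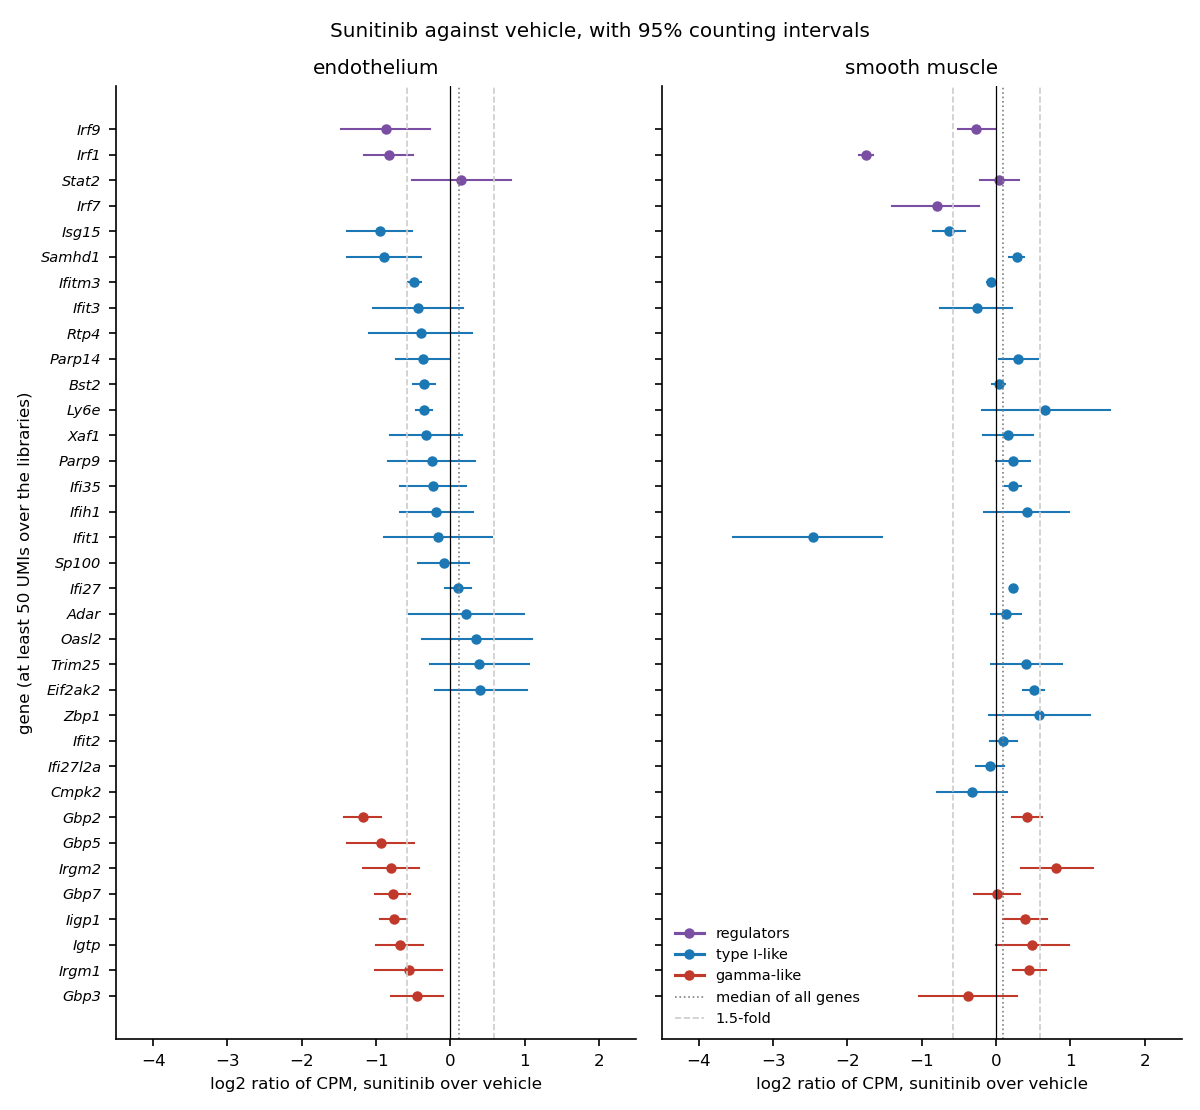
Log2 ratios of CPM, sunitinib over vehicle, for genes with at least 50 UMIs, in endothelium (left) and smooth muscle (right), with points for genes and lines for 95% counting intervals. All 8 gamma-like genes lie below 0 in endothelium, while 6 of 7 lie above 0 in smooth muscle, where Irf1 (-1.75) and Ifit1 (-2.47) are the lowest.

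Other genes of the pathway in endothelium divided in the same comparison. Of 27 other gamma-induced genes, 19 had enough UMIs, 19 lay below 0 and 13 were at least 1.5-fold lower, with a median of -0.93. Beside this and the counts that follow, 3.88% of all genes were at least 1.5-fold lower and 8.06% higher. The class II invariant chain Cd74 had 1252 CPM in the vehicle library and 287 in the sunitinib library (-2.13, -2.27 to -1.99). Ciita, with too few UMIs for that count, stood at 15.8 and 3.24 CPM. The chemokine gene Cxcl10 stood at 40.1 and 3.24 CPM (-3.63, -5.13 to -2.43), but 1 vehicle cell held 32 of its 66 UMIs, and without that cell the vehicle level was 20.7 CPM. The smallest differences were those of Psmb8, a subunit of the immunoproteasome (-0.37, -0.55 to -0.18), and the peptide transporter gene Tap1 (-0.33, -0.74 to 0.09). The medians of the signalling lists stood near that of all genes. Interferon receptors stood at 0.13 (5 genes, 0 lower and 1 higher) and nucleic acid sensors at 0.10 (5 genes, 1 lower and 0 higher). JAK kinases, STATs and feedback genes stood at 0.15 (7 genes, 0 lower and 2 higher), but their ratios ran from -0.48 to 0.60. In that list 1 interval lay below 0 and 1 above. Its 2 higher genes were Ptpn2 (0.60, -0.24 to 1.47) and Pias1 (0.59, 0.04 to 1.15). Ifngr1, the ligand-binding chain of the interferon gamma receptor, stood at 286 and 313 CPM (0.13, -0.05 to 0.31). Other type I-induced genes had a median of -0.17 over 16 genes, with 3 lower and 1 higher, from Slfn5 (130 and 63.8 CPM, -1.03, -1.36 to -0.70) and Herc6, a ubiquitin ligase gene (34.0 and 18.4 CPM, -0.89, -1.55 to -0.25), to Parp12 (0.53, -0.24 to 1.33) and Pml, which builds nuclear bodies (0.87, -0.002 to 1.80). Ifnar1, a chain of the type I receptor, had the highest ratio of the receptors at 0.79 (-0.07 to 1.70), and Tlr3, a sensor of double-stranded RNA, the lowest of the sensors at -0.68 (-1.43 to 0.05). Ifng, Ifnb1, Ifna4 and Ifnk had 0 UMIs in smooth muscle and endothelium of the 3 libraries, which limits transcripts captured and not production elsewhere.

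The gamma-like transcripts were unevenly divided among endothelial cells. With each cell thinned to 3000 UMIs, vehicle cells held a median of 2 gamma-like UMIs (quartiles 1 to 5, highest 26) and sunitinib and both-compound cells a median of 1 (quartiles 0 to 2 in each). No gamma-like UMI was seen in 19.2% of 130 vehicle, 41.9% of 148 sunitinib and 41.4% of 251 both-compound cells, and in 94.8% of vehicle smooth muscle cells at the same depth. The Fano factor, the variance over the mean, was 5.25, 4.80 and 4.55, where counting error alone gives about 1. Thinning left out 20, 35 and 101 shallower cells. For the type I-like genes without the abundant Ifitm3, Ly6e and Bst2, vehicle cells had a median of 3 UMIs and sunitinib cells of 2. Here 1 vehicle cell stood apart, with 69 of its 5829 UMIs (1.18%) from these genes, against a median of 0.0843% and a next highest of 0.247%. That cell held 14 of the 124 Isg15 UMIs of vehicle endothelium, and the Isg15 level without it was 67.1 CPM.

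**Figure D3:**
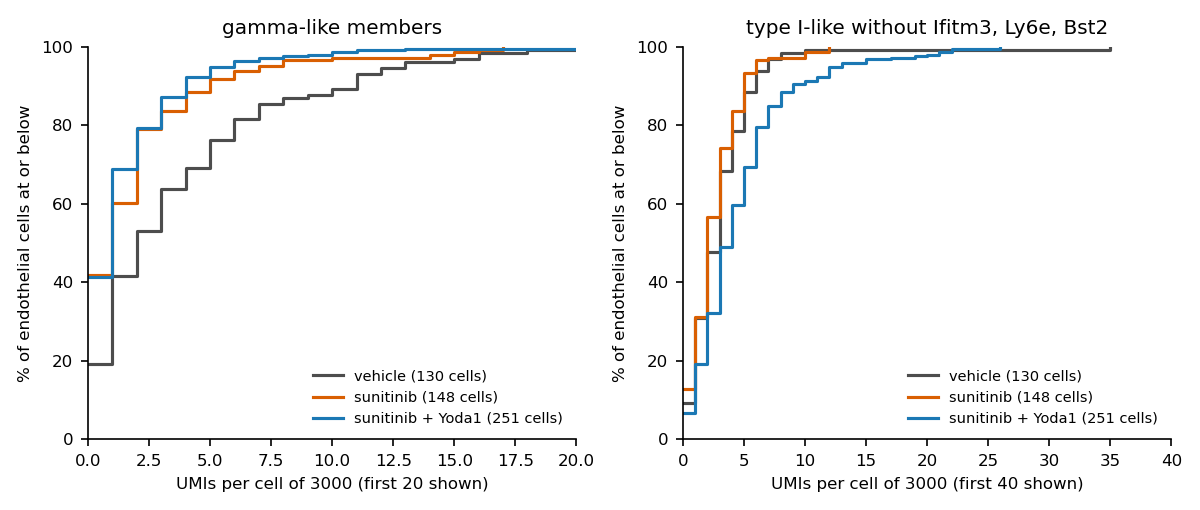
Share of endothelial cells (in %, y axis) with at most the number of UMIs on the x axis, after thinning each cell to 3000 UMIs, for gamma-like genes (left) and type I-like genes without Ifitm3, Ly6e and Bst2 (right), 1 line per library. At 0 gamma-like UMIs the vehicle line starts at 19.2% and the other lines at 41.9% and 41.4%, and the 1 vehicle cell with 35 type I-like UMIs forms the last step on the right.

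In vehicle and sunitinib, endothelial cells with the class II invariant chain carried more gamma-like transcript than cells without it, and such cells were a smaller share with sunitinib. After thinning to 3000 UMIs, 60.8% of vehicle cells (51.8% to 69.2%, exact binomial interval), 23.0% of sunitinib cells (16.5% to 30.6%) and 6.37% of both-compound cells had a Cd74 UMI. For background, 3594 vehicle and 3796 sunitinib smooth muscle cells, at median depths of 16874 and 16254 UMIs against 8097 and 7115 in endothelium, held 54 and 12 Cd74 UMIs in all. In cells with Cd74 the gamma-like genes summed to 1387 CPM in vehicle and 1151 in sunitinib, and in cells without it to 1006 and 578 CPM. In the library with both compounds the sums were 463 CPM in 16 cells with Cd74 and 474 CPM in 235 without. The median ratio of the list was -0.27 in cells with Cd74, where 3 of 24 listed genes of all kinds were at least 1.5-fold lower (6.4% of all genes in these cells), and -0.81 in cells without it, where 11 of 22 were (5.72% of all genes). Cells counted as without Cd74 had none after thinning and still held 102 and 57.4 CPM of it before. Among cells with Cd74, Iigp1 stood at 420 and 413 CPM (-0.02, -0.27 to 0.22), while Gbp2 stood at 274 and 143 CPM (-0.94, -1.33 to -0.56). Among cells without Cd74, Iigp1 stood at 278 and 154 CPM (-0.85, -1.16 to -0.52) and Gbp2 at 152 and 90.8 CPM (-0.74, -1.17 to -0.30). Gbp2 was therefore lower on both sides of this split and Iigp1 on 1 side. Cd74 is itself induced by interferon gamma and the split was chosen after the levels were seen, so its values are a description.

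In smooth muscle the gamma-like genes were not lower with sunitinib. Their sum was 17.8 CPM in vehicle, 23.0 in the sunitinib library (21.8 to 24.2) and 98.6 in that with both compounds (79.7 to 120). The median ratio of sunitinib over vehicle was 0.41 over 7 genes, 6 of them above 0, against 0.09 over all 12672 genes. Irgm2, at 0.887 and 1.56 CPM, was the 1 gamma-like gene at least 1.5-fold higher (0.81, 0.33 to 1.30), and it is the gene whose reads may be shared with Igtp (0.49, -0.01 to 0.99). Irgm1 stood at 4.32 and 5.88 CPM (0.45, 0.22 to 0.67), Gbp2 at 5.38 and 7.17 CPM (0.41, 0.21 to 0.62) and Iigp1 at 2.62 and 3.41 CPM (0.38, 0.09 to 0.68). Gbp7 had a ratio of 0.01 (-0.30 to 0.32) and Gbp3 of -0.37 (-1.04 to 0.28), and Gbp5 had 48 UMIs in all, under the limit. With cells of at most 5% mitochondrial UMIs alone, the median of the list was -0.16.

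Irf1 was the regulator that differed most in smooth muscle. Its levels were 60.5, 18.0 and 21.8 CPM in vehicle, sunitinib and the library with both compounds, and the ratio of sunitinib over vehicle was -1.75 (-1.84 to -1.65). Over 12 immediate early and dissociation-induced genes, such as Fos and Hspa1b, all 12 ratios lay below 0 with a median of -0.52, and Hspa1b stood at 416 and 150 CPM. Irf1 is itself rapidly induced by many stimuli. Cells of both libraries were divided into 3 groups at the same limits of the summed level of those genes. From the lowest to the highest group, Irf1 stood at 6.98 and 3.86 CPM, 48.4 and 20.5 CPM, and 89.2 and 37.5 CPM. The ratios were -0.85 (-1.29 to -0.42), -1.24 (-1.39 to -1.08) and -1.25 (-1.39 to -1.12). The Irf1 ratio was thus below 0 in each of the 3 groups, by less than in all cells together. The groups were wide and unevenly filled, with 1637 vehicle and 826 sunitinib cells in the highest. Differences in those genes may therefore remain within a group, and their part in the Irf1 values was not tested. Irf7 stood at 1.09 and 0.625 CPM (-0.80, -1.40 to -0.23), Irf9 at 4.43 and 3.69 CPM (-0.27, -0.52 to -0.01) and Stat2 at 3.79 and 3.91 CPM (0.04, -0.21 to 0.30). The Irf7 ratio was 0.61 in cells of at most 5% mitochondrial UMIs.

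The type I-like genes of smooth muscle stood on both sides of 0. The sum was 517 CPM in vehicle and 567 in sunitinib, and the median ratio over 20 genes was 0.19, with 14 above 0. Ifit1, which binds foreign RNA ends, stood at 0.974 and 0.176 CPM, from 67 and 11 UMIs (-2.47, -3.53 to -1.53), but the ratio was 0.041 where each cell was weighted equally. Isg15 stood at 7.46 and 4.81 CPM (-0.63, -0.84 to -0.42), while Cmpk2, a nucleotide kinase gene beside Rsad2, at -0.33 (-0.80 to 0.14) and Ifit3 at -0.26 (-0.75 to 0.22) had intervals that included 0. At the upper end, Ly6e (0.66, -0.20 to 1.53) and Zbp1, a sensor of Z-form nucleic acid (0.58, -0.09 to 1.26), rested on 51 and 80 UMIs. Eif2ak2 stood at 10.5 and 14.8 CPM (0.50, 0.36 to 0.65) and Ifih1 (MDA5, a sensor of long double-stranded RNA) at 0.712 and 0.946 CPM (0.41, -0.16 to 0.99). Of the 31 genes of all 3 kinds with enough UMIs, 4 were at least 1.5-fold lower (Irf1, Irf7, Ifit1 and Isg15), beside 3.55% of all genes, and 2 were higher (Irgm2 and Ly6e), beside 5.6%. The lower count was 1 with each cell weighted equally, 1 with cells thinned to 3000 UMIs and 9 with no minimum of UMIs. Shares of all genes at these settings are not given here.

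Among the other pathway genes of smooth muscle, interferon receptors had a median of 0.11 and nucleic acid sensors of 0.19, with 0 genes past 1.5-fold in either list. Of the feedback genes, Socs1, an inhibitor of JAK kinases, stood at 29.8 and 15.7 CPM (-0.93, -1.04 to -0.82), and Stat3 at 98.9 and 71.8 CPM (-0.46, -0.52 to -0.41). Cxcl10 stood at 3.90 and 1.14 CPM (-1.77, -2.17 to -1.39) and Cd74 at 0.785 and 0.192 CPM (-2.03, -3.07 to -1.11). Both were among the 4 lower of 14 other gamma-induced genes, whose median was 0.07. Of all genes in smooth muscle, 3.55% were at least 1.5-fold lower and 5.6% higher. Other type I-induced genes had a median of 0.05 over 17 genes, from Znfx1 at -0.52 (-0.62 to -0.42) to Isg20, an RNA-degrading nuclease, at 0.69 (0.06 to 1.33).

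In endothelium of the library with both compounds, the gamma-like genes lay below the sunitinib library, and most type I-like genes with enough UMIs lay above it. The comparison shares the sunitinib library with the one above. The 8 gamma-like ratios were all below 0 (median -0.85), with 5 at least 1.5-fold lower, against 20.9% of all 8130 genes. Igtp stood at 75.7 CPM in sunitinib and 29.8 with both compounds (-1.34, -1.79 to -0.91), and Irgm2 at 52.4 and 20.3 CPM (-1.37, -1.91 to -0.84). Gbp3 (-1.04, -1.47 to -0.63), Irgm1 (-0.94, -1.51 to -0.39) and Gbp2 (-0.76, -1.08 to -0.44) were the other lower genes, while Gbp5 (-0.52), Iigp1 (-0.42) and Gbp7 (-0.26) were not past 1.5-fold. With cells thinned to 3000 UMIs the median was -0.31.

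Of 23 type I-like genes, 13 were at least 1.5-fold higher with both compounds and 2 lower (median 0.78). Of all genes 33.8% were higher and 20.9% lower, with a median of 0.16. Rsad2, Ifi27l2a, Ifit2 and Ifi44, all among the 13, had under 50 UMIs over vehicle and sunitinib. They passed the limit only through the library where they were high, which raises the count and the median. Neither is given here without them, so neither is a result about the list as a whole. Rsad2 stood at 4.25, 2.16 and 131 CPM in vehicle, sunitinib and the library with both compounds (5.92, 4.54 to 7.80), resting on 7, 4 and 289 UMIs. Ifi27l2a stood at 4.86, 6.49 and 63.7 CPM (3.30, 2.45 to 4.28), Ifit2 at 10.9, 5.94 and 27.5 CPM (2.21, 1.27 to 3.29) and Trim25 at 20.7, 27.0 and 97.5 CPM (1.85, 1.40 to 2.33). At the other end Ifi27 stood at 290, 311 and 163 CPM (-0.94, -1.13 to -0.75), Ifit3 at 32.2, 23.8 and 14.5 CPM (-0.72, -1.42 to -0.03), Bst2 at 506, 396 and 317 CPM (-0.32, -0.47 to -0.17) and Oasl2 at 17.0, 21.6 and 22.1 CPM (0.03, -0.60 to 0.67). All 4 regulators were higher than with sunitinib, from Irf1 at 0.60 (0.28 to 0.93) to Irf7, at 9.73 and 31.6 CPM (1.70, 0.94 to 2.54). Irf7 too passed the limit only through this library. So Rsad2 and Ifit2 were far higher while Ifit3, from the same family as Ifit2, was lower, and Isg15 stood at 75.3, 38.9 and 68.6 CPM, with the vehicle and both-compound intervals overlapping.

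The endothelial cells of that library were also of another kind. Genes of capillary endothelium (Gpihbp1, Cd36, Car4, Rgcc and Fabp4) summed to 149, 38.4 and 18001 CPM in vehicle, sunitinib and both compounds, and genes of large-vessel endothelium (Vcam1, Fbln2, Fbln5, Bmp4 and Clu) to 5985, 6228 and 1018 CPM. With all genes divided into 5 equal groups by intron length, the median ratio ran from -0.45 in the group with the least intron sequence to 1.24 in that with the most. Of the 23 type I-like genes, 20 lay in the 3 groups with less intron sequence, where their medians were 0.32, 0.82 and 0.83 and those of all genes -0.45, -0.18 and 0.13. The type I-like medians include Ifi27l2a, Rsad2, Ifi44 and Ifit2, which reached the minimum of UMIs only through this library, and this raises them. They are therefore no measure of what intron counting adds. The parts of vessel type, treatment and software version in these values cannot be told apart. Cxcl9, a chemokine gene known as a gamma target, stood at 94.4 CPM with both compounds and had 0 UMIs in the other libraries (at least 5.86 log2 units higher, from 3 counts in the sunitinib library). Slfn5 stood at 130, 63.8 and 567 CPM (3.15, 2.88 to 3.44), while Cd74 stood at 37.9 CPM and H2-Ab1 at 13.1 CPM, with log2 ratios to sunitinib of -2.92 and -3.04.

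**Figure D4:**
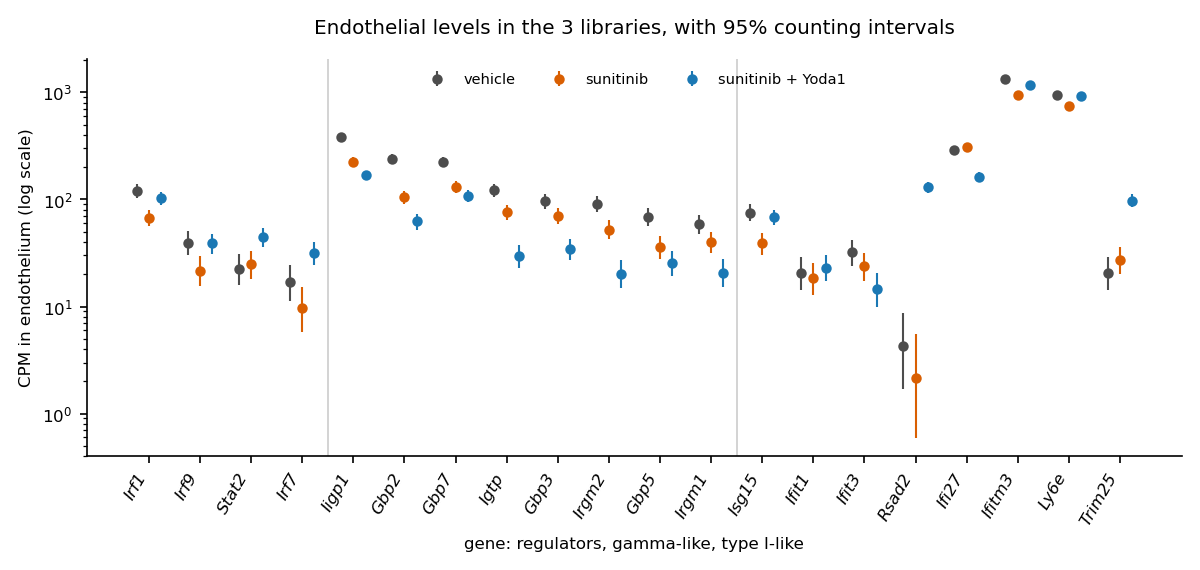
Levels in endothelium (CPM, log scale) of the 4 regulators, 8 gamma-like genes and 8 of the type I-like genes in the 3 libraries, with 95% counting intervals. Each gamma-like gene is highest in vehicle and lowest with sunitinib plus Yoda1 (Gbp2 at 239, 105 and 62.3 CPM), Irf1 and Irf9 are lowest in sunitinib, and Rsad2 stands at 131 CPM with both compounds against 4.25 and 2.16 CPM. Rsad2 and Irf7 reached the minimum of 50 UMIs only through the library with both compounds.

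Smooth muscle of the same library held 63 cells and 963902 UMIs, so its values carry wide intervals. The median ratio over sunitinib was 2.70 for 6 gamma-like genes, with 5 higher, and 1.03 for 17 type I-like genes, with 12 higher and 2 lower, against a median of 0.20 and shares of 32.7% higher and 10.9% lower over all 11889 genes. Iigp1 rested on 31 UMIs and stood at 32.2 CPM, against 3.41 in sunitinib (3.24, 2.64 to 3.78), and Gbp7 on 17 UMIs at 17.6 CPM (2.70, 1.89 to 3.42). With cells thinned to 3000 UMIs the gamma-like median was 1.20. Ifih1 (3.46, 2.32 to 4.43), Trim25 (3.10, 2.04 to 4.01), Ifit3 (2.58, 1.08 to 3.78) and Isg15 (2.54, 1.92 to 3.11) were the highest type I-like genes, and Ifit2 (-0.92, -2.80 to 0.45), Samhd1 (-0.68, -1.52 to 0.05), Ifi27 (-0.31, -0.51 to -0.13) and Cmpk2 (-0.07, -5.40 to 2.46, from 1 UMI) the lowest. Iigp1 stood there at 19.2% of the endothelial level and Gbp2 at 28.3%. Of the endothelial markers, Cdh5 had 0 UMIs, and Vwf and Pecam1 stood at 1.36% and 2.34% of theirs. These markers belong to the endothelial rule, so the class rules partly set their low levels. B and T cell markers together stood at 0.505% of their leukocyte level. Haemoglobin markers, however, summed to 7276 CPM in these cells, against 1.39 CPM in sunitinib smooth muscle and 38250 CPM in endothelium of the same library. RNA of other cells was thus not low by every marker, and its part in these values was not tested. Cd74 stood at 39.4 CPM in these cells, against 4043 CPM in leukocytes.

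Leukocytes could be described in the library with both compounds alone, since vehicle held 6, with 114 type I-like and 5 gamma-like UMIs, and sunitinib held 0. The 2029 cells had type I-like genes at 2762 CPM in sum (2735 to 2789) and gamma-like genes at 175 CPM (168 to 182), against 3808 and 469 CPM in endothelium of the same library. Split by markers, 1029 were B cells, 682 T cells and 149 mononuclear phagocytes. Type I-like genes summed to 7197 CPM in mononuclear phagocytes (7069 to 7328), 2422 in B cells (2382 to 2462) and 1609 in T cells (1576 to 1643). Gamma-like genes summed to 255 CPM in T cells (242 to 268), 213 in mononuclear phagocytes (191 to 236) and 71.6 in B cells (64.9 to 78.8). The order of the subsets thus differed between the lists.

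Single genes set the subsets apart. In mononuclear phagocytes Ifitm3 stood at 2169 CPM, Ifi27l2a at 1332 CPM and Irf7 at 178 CPM, where B cells and T cells had Irf7 at 8.69 and 11.3 CPM. Isg15 stood at 231, 6.82 and 17.1 CPM in mononuclear phagocytes, B cells and T cells, Ifit3 at 98.4, 1.02 and 2.92 CPM, and Rsad2 at 145, 2.90 and 5.29 CPM, the last close to its endothelial level of 131 CPM in this library. Ly6e, by contrast, stood highest in B cells at 1107 CPM, with 880 in mononuclear phagocytes and 380 in T cells, and Sp100 at 401, 237 and 267 CPM. Samhd1 stood at 416, 214 and 201 CPM in mononuclear phagocytes, B cells and T cells. T cells had the highest Irf1, at 158 CPM, beside 63.2 in B cells and 68.8 in mononuclear phagocytes, and the highest Irgm2 (51.4, 5.62 and 22.3 CPM) and Igtp (48.7, 8.69 and 21.1 CPM). Iigp1 stood at 29.5 CPM in T cells, 6.64 in mononuclear phagocytes and 0.341 in B cells, far under its endothelial 168 CPM. Irgm1, Gbp2, Gbp3 and Gbp5 stood highest in mononuclear phagocytes, at 48.9, 33.2, 21.7 and 13.3 CPM, with Gbp2 in T cells (28.3 CPM) and Gbp5 in B cells (12.8 CPM) close behind. Interferon gamma itself was seen there: Ifng had 84 UMIs in leukocytes, 43 of them in T cells, which is 7.84 CPM in T cells.

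Mononuclear phagocytes were the most uneven cells. After thinning, they held a median of 6.5 type I-like UMIs without Ifitm3, Ly6e and Bst2, with quartiles of 3 and 14.8, a 90th percentile of 34.6 and a highest cell of 127. The Fano factor was 29.4, against 2.49 in B cells and 2.37 in T cells. Of the 149 cells, 91 had at least 2 of the monocyte genes Ly6c2, Plac8, Ccr2 and Chil3, and these had type I-like genes at 8090 CPM in sum (7930 to 8253), with Irf7 at 218 CPM. The other 58 cells stood at 4868 CPM (4669 to 5074), with Irf7 at 74.1 CPM. Without Ifitm3, Ly6e and Bst2, the 10 cells with most type I-like UMIs held 38.9% of those UMIs in the first group and 64.7% in the second, so a few cells carried much of each sum. Gamma-like sums were 207 and 229 CPM, with overlapping intervals. This split was chosen after the values were seen. Cells with monocyte genes were deeper, at medians of 12926 and 4453 UMIs. Neutrophil markers summed to 2997 CPM and platelet markers to 2623 CPM in the 149 cells, and the part of such cells in the type I-like values was not tested.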

How the data were processed

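Single-cell libraries of vascular tissue were analysed, 1 for each of vehicle, sunitinib and sunitinib plus Yoda1. The authors deposited 1 matrix per library of raw UMI counts per gene and barcode, not normalized. Per the file headers, the vehicle and sunitinib matrices were written by Cell Ranger 6.0.0 and the last by 7.1.0, and Cell Ranger, Seurat and build mm10 are named per the submitters' processing notes. Version 7 counts intronic reads by default and version 6 did not. Whether the defaults were kept, the annotation and the use of strand are not given in the sources used here. The label of the last library names Yoda1 alone; no other group of the series design has Yoda1, so it was taken as sunitinib plus Yoda1.

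Kept cells held 72711766, 65621866 and 21698547 UMIs. Doublets were not called; cells that met more than 1 class rule (21, 23 and 16) were left out, as were 176, 146 and 670 cells in no class. Leukocyte subsets needed at least 2 genes of their own marker list and at most 1 of each other. Summed counts were given as CPM with exact Poisson intervals, and ratios with exact conditional binomial intervals (scipy 1.17.1, Python 3.11.15). A 0 was set to 3 counts, and no ratio is given from 3 counts or fewer in all. Genes needed 50 UMIs over both libraries for medians and counts. No p-value was made, since cells are not replicates. edgeR 4.0.16 gave alternative scaling factors alone. The ratio step was tested on simulated data.

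The genes, lists and rules were chosen with earlier results of these data known. Named genes are all regulators and gamma-like genes, the type I-like genes with most CPM (6 per class; for leukocytes in the library that holds them) and with the 4 highest and 4 lowest ratios per comparison, the 2 highest and 2 lowest of other lists, and Ciita and Cd74 (1 further gene of this rule is not reported here); others named were chosen after their values were seen. Immediate early, capillary and large-vessel lists and the monocyte split were added after the data were seen. Gene overlaps come from GENCODE vM21 on GRCm38, and promoters from RefSeq. Antisense overlaps (Irf7 with Phrf1, Ifi35 with Gm11626, Parp9 with Dtx3l, Rtp4 with Masp1, Adar with Chrnb2, Sp100 with Gm17017) and near-identical copies (Ifit3 and Ifit3b) leave those counts uncertain. Alternatives were other scalings, cell filters, weightings, UMI minimums, thinning and removal of free RNA.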

Additional observations from a re-analysis of the deposited data

Results flagged for a closer look

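Cells that met no class rule also carried type I-like transcripts. They summed to 575 CPM in 176 vehicle cells, 823 CPM in 146 sunitinib cells and 2551 CPM in 670 sunitinib plus Yoda1 cells. Gamma-like transcripts summed to 41.9 CPM in the vehicle cells, 36.2 CPM in the sunitinib cells and 170 CPM in those of sunitinib plus Yoda1. The cells differed in depth, at medians of 7587.5, 1058 and 2748.5 UMIs in that order. These cells were set aside from the comparisons, and what they are was not tested.

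A few genes had opposite ratios in endothelium and smooth muscle, each at least 1.5-fold and with its counting interval on its own side of 0. Differences are endothelium minus smooth muscle, and were not tested. For sunitinib over vehicle this was Irgm2, with a difference of -1.61; Gbp2, Iigp1, Irgm1, Samhd1 and Parp14 also had opposite ratios with intervals clear of 0, but under 1.5-fold in at least 1 class. For sunitinib plus Yoda1 over sunitinib these were Ifit3 (-3.30), Gbp2 (-2.06), Igtp (-4.04) and Irgm2 (-4.24), where smooth muscle rested on 63 cells, and Iigp1 and Bst2 had opposite ratios under 1.5-fold in endothelium.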

How the results depend on the processing

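No paired analysis was possible because each group was 1 library. With 3594 to 3796 smooth muscle but 150 to 352 endothelial cells, counting limits the endothelial values, and with 1 library per group no alternative speaks to variation between mice. In endothelium, sunitinib over vehicle, the gamma-like median (-0.77) was below 0 in every alternative run and was -0.27 in cells with Cd74. The number of lower genes (10) was 6 after thinning, 17 with no UMI minimum and 3 in cells with Cd74. Shares of all genes after thinning, with no minimum and with cells weighted equally are not given here. In smooth muscle the gamma-like median (0.41) was -0.16 in cells with at most 5% mitochondrial UMIs, and the number of lower genes (4) was 1 with cells weighted equally, 1 after thinning and 9 with no minimum; Irf7 was 0.61 under the mitochondrial limit and Ifit1 0.041 with cells weighted equally. For sunitinib plus Yoda1 over sunitinib, the smooth muscle type I-like median (1.03) was 2.08 with no minimum, the gamma-like median (2.70) was 1.20 after thinning, and the endothelial gamma-like median (-0.85) was -0.31 after thinning. TMM factors of edgeR would lower all ratios of that comparison by 0.34 in smooth muscle and 0.17 in endothelium. With each class rule applied by itself, vehicle and sunitinib endothelium held 3231 and 2564 CPM of type I-like and 1068 and 620 CPM of gamma-like transcript, and smooth muscle 19.3 and 24.4 CPM of gamma-like. The smooth muscle medians under the 5% limit for sunitinib plus Yoda1 were not run (under 20 cells). The causes were not tested.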
